A study of Rattus norvegicus with 22 samples.

Results

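The receptors described here are the metabotropic glutamate receptors Grm2 to Grm8 and both subunits of the GABA-B receptor, Gabbr1 and Gabbr2. Every probe set that carries one of these 9 symbols in the array annotation was taken, and each probe set was kept apart. The rule found 10 probe sets of the 1050 in the deposited table. They stood for 6 of the 643 genes named in the table: 3 probe sets for Gabbr1, 3 for Gabbr2, and a single probe set each for Grm2, Grm4, Grm5 and Grm8. No probe set of the table was named Grm3, Grm6 or Grm7, and these 3 genes were not analysed here. Probe sets of one gene are numbered by falling brightness over all arrays.

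Metabotropic glutamate and GABA-B receptors belong to class C of the G protein-coupled receptors and act as dimers. Grm2, Grm4 and Grm8 encode receptors coupled to inhibitory G proteins, which lower cyclic AMP and are known for dampening transmitter release, while the receptor encoded by Grm5 acts through phospholipase C. The GABA-B receptor needs both subunits: Gabbr1 binds GABA, and Gabbr2 brings the dimer to the cell surface and couples it to the inhibitory G protein, through which it opens potassium channels and closes calcium channels.

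The cells came from lumbar segment 2 of the spinal cord of Wistar rats of postnatal day 0 to 4. Descending commissural interneurons (dCINs), whose axons cross the midline, had taken up rhodamine dextran from a hemisection caudal to that segment, and motoneurons (MNs) had taken it up from the ventral roots. The third group, MIX, was a random selection of ventral horn cells, so its composition is not given by a label. Laser microdissected cells of each animal filled an array of their own, with 7 dCIN arrays of 50 to 100 cells (median 75), 7 MN arrays of 55 to 250 cells (median 100) and 8 MIX arrays of 95 to 187 cells (median 112.5). The labels name no treatment and no genetic change in any group. Values are signals on a linear scale in arbitrary units, and a higher signal can come from more expressing cells in the sample or from more RNA per cell, which cannot be told apart here. Array medians ran from 43.5 to 50.9 in dCINs, from 44.3 to 50.8 in MNs and from 45.0 to 48.2 in MIX.

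Before the receptors, the labels were set against the defining markers. The summed signal of 5 probe sets for 3 motor neuron marker genes was 4622 to 6498 in MNs, 2306 to 4634 in MIX and 644 to 1918 in dCINs. In MNs and MIX most of this sum came from the brighter probe set of Slc18a3, with means of 4040 and 2557.5. By limma, 3 of the 5 probe sets were lower in dCINs than in MNs (Benjamini-Hochberg adjusted p under 0.1). The 2 probe sets of Slc32a1, the vesicular transporter for GABA and glycine, summed to 387 to 804 in dCINs, 72.1 to 400 in MNs and 241 to 616 in MIX. Some arrays stood apart from their group. The vesicular acetylcholine transporter Slc18a3, a marker of cholinergic neurons, was at 1133, 1104 and 839 in dCIN arrays 1, 2 and 6 and at 55.8 to 390 in the other dCIN arrays, and Slc32a1 reached 366 in MN array 3, where the other MN arrays held 35.2 to 149. For the called receptors, values without MN array 3 and without the arrays numbered 1 and 2 are given beside the results.

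Of the 10 receptor probe sets, 2 differed between dCINs and MNs, Gabbr2 probe set 1 and Grm4, and both were higher in dCINs. A difference was called at an adjusted p under 0.1, taken with the Benjamini-Hochberg procedure over all 1050 probe sets in limma. Among all probe sets 40 (3.81%) passed this threshold, 25 (2.38%) of them higher in dCINs and 15 (1.43%) lower. The median difference over the 10 receptor probe sets was -0.03 on the log2 scale, the same as over all probe sets (-0.03), and 5 of the 10 lay above 0. The 2 calls therefore stood against 8 probe sets with differences between -0.33 and 0.03. Neither MIX against MNs nor MIX against dCINs gave a call among the 10 in limma. At an unadjusted p under 0.05 there were 2 in each of these comparisons, again Gabbr2 probe set 1 and Grm4, where 11.8% of all probe sets passed this for MIX against MNs and 7.14% for MIX against dCINs.

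**Figure D1:**
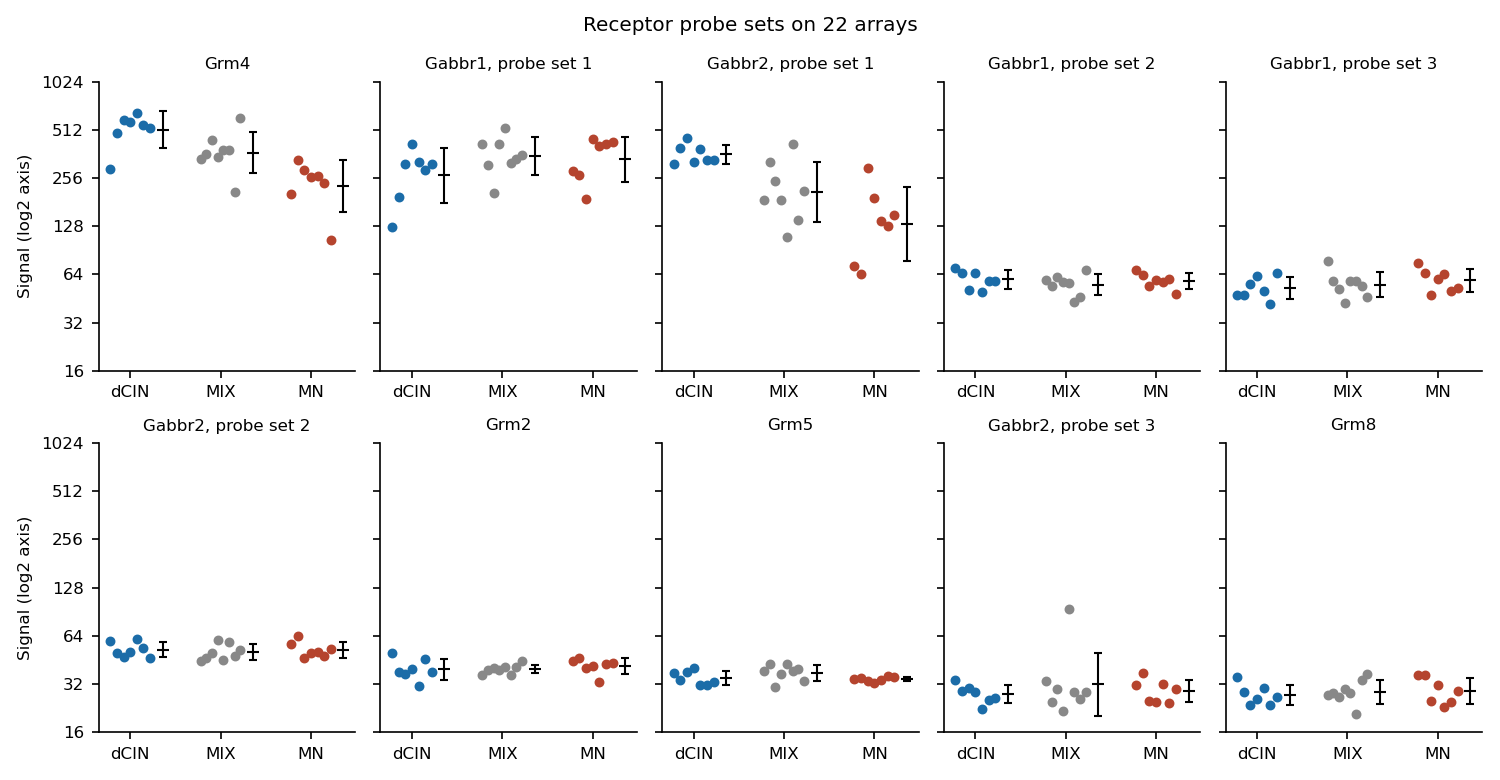
Signal of each receptor probe set on the 22 arrays, on a log2 axis in arbitrary units. Each point is 1 array of dCINs (blue), MIX (grey) or MNs (red), and the bar beside each group is the mean ± SD of the log2 signals. Grm4 and Gabbr2 probe set 1 were highest in dCINs, and Gabbr1 probe set 1 was bright in all 3 groups. The other 7 probe sets lay low, and their means were near level between dCINs and MNs. Gabbr2 probe set 3 reached 94.1 in MIX array 5.

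Gabbr2, the subunit that carries the GABA-B receptor to the membrane, had the higher signal in dCINs on its brightest probe set. On probe set 1 the lowest dCIN array stood at 314, the median at 333 and the highest at 452. In MNs the lowest array stood at 64.4, the median at 139 and the highest at 296. Every dCIN array was above every MN array, and the dCIN arrays lay closer together than the MN arrays. A gap without overlap between the 7 dCIN and 7 MN arrays was seen in 17 (1.62%) of the 1050 probe sets, in 9 (0.857%) of them with dCINs higher.

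The mean signal of Gabbr2 probe set 1 was 362 ± 51.3 (SD, n = 7 arrays) in dCINs and 149 ± 78.6 (SD, n = 7 arrays) in MNs. On the log2 scale dCINs were higher by 1.44 (SE 0.27, limma adjusted p = 0.00531), a 2.72-fold difference with a 95% interval of 1.81 to 4.07. MN arrays 1 and 2 were the dimmest, at 72.6 and 64.4, and MN array 3 was the brightest. These dimmest samples also held the most cells, 250 and 230, against 55 to 115 in the other MN samples, and without them the difference was 1.06 (SE 0.19, limma adjusted p = 0.00681). Between dCIN and MN arrays numbered 1 and 2 alone the difference was 2.36, and between those numbered 3 to 7 it was 1.07 (SE 0.21, limma adjusted p = 0.0130). MN array 3, the one with the highest Slc32a1 of its group, was also the only MN array near the dCIN range for Gabbr2, and without it the difference was 1.64 (SE 0.23, limma adjusted p = 0.000733). Other markers of that array were mixed. The glutamate transporter Slc1a6, also higher in dCINs, was at 77.5 there, where the MN arrays ran from 65.9 to 112. Slc18a3 was at 3941, where they ran from 2692 to 5211. The astrocyte marker S100b, at 1036, was the highest of the MN arrays. The part of other cells in that sample in the Gabbr2 value was not tested.

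Neither of the other Gabbr2 probe sets showed this pattern. Probe set 2 was at 52.8 ± 5.61 in dCINs against 52.6 ± 5.98 in MNs (SD, n = 7 arrays each), a log2 difference of 0.01 (SE 0.10, limma adjusted p = 0.997). Probe set 3 was at 28.0 ± 3.73 in dCINs and 29.4 ± 4.83 in MNs, a log2 difference of -0.07 (SE 0.12, limma adjusted p = 0.856). Their 95% intervals ran from 0.870 to 1.16 fold and from 0.801 to 1.14 fold, well short of the fold seen on probe set 1. The higher Gabbr2 signal in dCINs therefore rests on the brightest probe set alone. The table holds no detection calls, so whether the dimmer ones measured anything above background cannot be told.

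Grm4, a receptor of nerve terminals coupled to inhibitory G proteins, was the other called member. Its signal in dCINs had a lowest value of 290, a median of 548 and a highest value of 654. In MNs the lowest value was 104, the median 261 and the highest 331. The ranges met only through dCIN array 1, which held the 290, since the other 6 dCIN arrays all lay above the highest MN array. Likewise 6 of the 7 MN arrays lay below the lowest dCIN array. The mean was 524 ± 116 (SD, n = 7 arrays) in dCINs and 241 ± 72.2 (SD, n = 7 arrays) in MNs. The log2 difference was 1.16 (SE 0.23, limma adjusted p = 0.00859), or 2.23-fold with a 95% interval of 1.58 to 3.15.

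For Grm4 the numbered arrays went the opposite way to Gabbr2. The value for arrays 1 and 2 rests on 2 arrays per group and includes dCIN array 1, the lowest of its group at 290. Between dCIN and MN arrays numbered 1 and 2 the log2 difference was 0.54, and between those numbered 3 to 7 it was 1.41 (SE 0.24, limma adjusted p = 0.00502). The dCIN array with the lowest Grm4 was also the one with the highest Slc18a3. Arrays 2 and 6 of the dCINs, also high in Slc18a3, held Grm4 at 487 and 548. Both Gabbr2 and Grm4 were thus called with arrays 1 and 2 left out of both groups, although the sizes moved in opposite directions. Which of the 2 differences was larger turned with the arrays: over all arrays it was that of Gabbr2, but without the MN samples of over 200 cells it was that of Grm4 (1.23 against 1.06), as in arrays 3 to 7 and with a covariate for cell number (1.35 against 1.02). Without MN array 3 the Grm4 difference was 1.21 (SE 0.25, limma adjusted p = 0.00858).

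**Figure D2:**
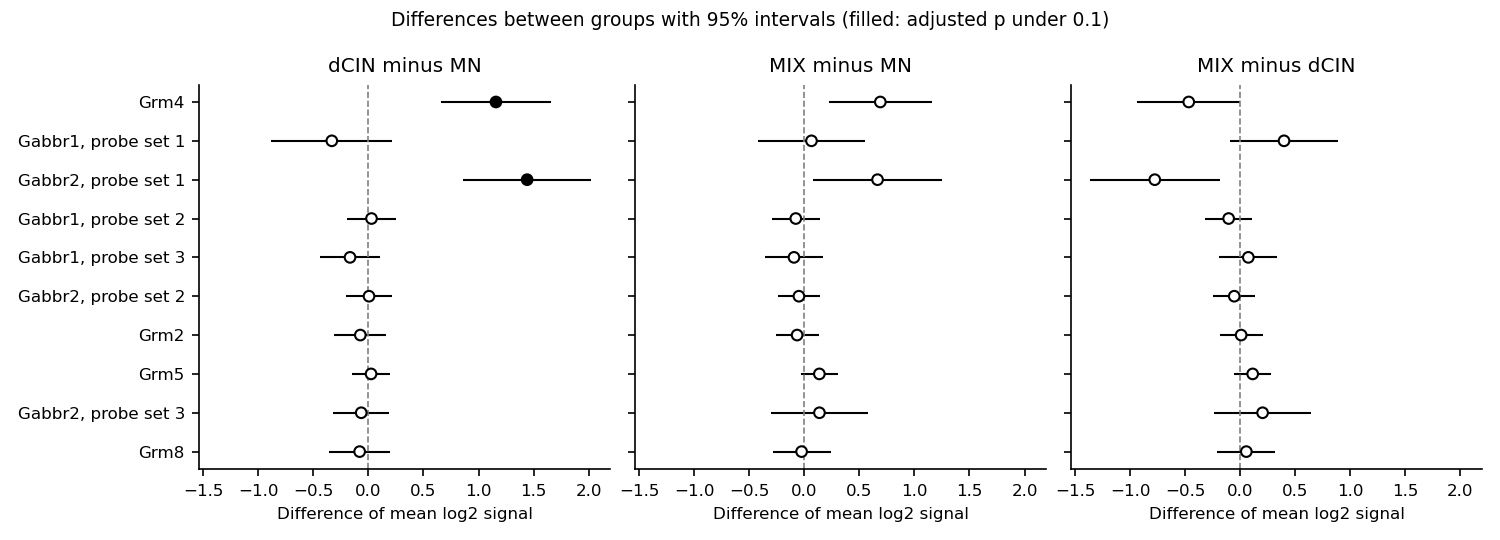
Differences of mean log2 signal for the 10 receptor probe sets in dCINs minus MNs, MIX minus MNs and MIX minus dCINs, with 95% intervals from limma. Filled points have an adjusted p under 0.1, which was the case only for Grm4 (1.16) and Gabbr2 probe set 1 (1.44) in dCINs minus MNs.

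Gabbr1, the GABA-binding partner of Gabbr2, was not called in any comparison. On its probe set 1 dCINs ran from 126 to 420 with a median of 312, and MNs from 190 to 446 with a median of 407. The ranges overlapped almost throughout, and the 2 lowest of the 14 values belonged to dCIN array 1 and MN array 3. The means were 282 ± 94.9 in dCINs against 349 ± 99.6 in MNs (SD, n = 7 arrays each), with a log2 difference of -0.33 (SE 0.26, limma adjusted p = 0.716). Its 95% interval ran from 0.543 to 1.16 fold, which leaves room for a lower level in dCINs. Between arrays numbered 1 and 2 the difference was -0.81, and between those numbered 3 to 7 it was -0.14. Probe set 2 was at 60.0 ± 7.69 in dCINs and 58.7 ± 6.42 in MNs, and probe set 3 at 53.0 ± 8.53 and 59.5 ± 9.86 (SD, n = 7 arrays each). Their log2 differences were 0.03 (SE 0.10, limma adjusted p = 0.936) and -0.17 (SE 0.13, limma adjusted p = 0.716).

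Because a working GABA-B receptor needs both subunits, the brightest probe sets of Gabbr2 and Gabbr1 were also compared within each array. Probe sets differ in how brightly they bind, so the level of this log2 ratio carries no meaning and only its difference between groups was read. It was 0.43 ± 0.58 (SD, n = 7 arrays, range -0.38 to 1.31) in dCINs and -1.34 ± 0.92 (SD, n = 7 arrays, range -2.06 to 0.64) in MNs. All MN arrays but array 3 lay below every dCIN array, and MN array 3 stood at 0.64 within the dCIN range. The ratio was higher in dCINs by 1.77 (exact permutation test, two-sided, p = 0.0035, 0.0105 after Benjamini-Hochberg adjustment over 3 pairs of groups). This value is made up of the differences given above, 1.44 for Gabbr2 and -0.33 for Gabbr1, on the same arrays. The test is therefore not independent of the Gabbr2 call, and Gabbr1 was not called by itself. The smallest p that 7 arrays against 7 allow is 0.000583. Without MN array 3 the difference was 2.10 (exact permutation test, adjusted p = 0.00175).

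This difference in ratio leaned on arrays 1 and 2, in which Gabbr2 was low in MNs and Gabbr1 was low in dCINs. With only arrays numbered 3 to 7 it was 1.21 (exact permutation p = 0.0476), and the adjusted p rose to 0.104. It also leaned on the choice of Gabbr2 probe set, as with the dimmer ones in its place it lay between -0.09 and 0.34, whereas with Gabbr2 probe set 1 over Gabbr1 probe sets 2 and 3 it was 1.41 and 1.61. A ratio within an array shows unequal change of both signals and not which of them was steady.

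**Figure D3:**
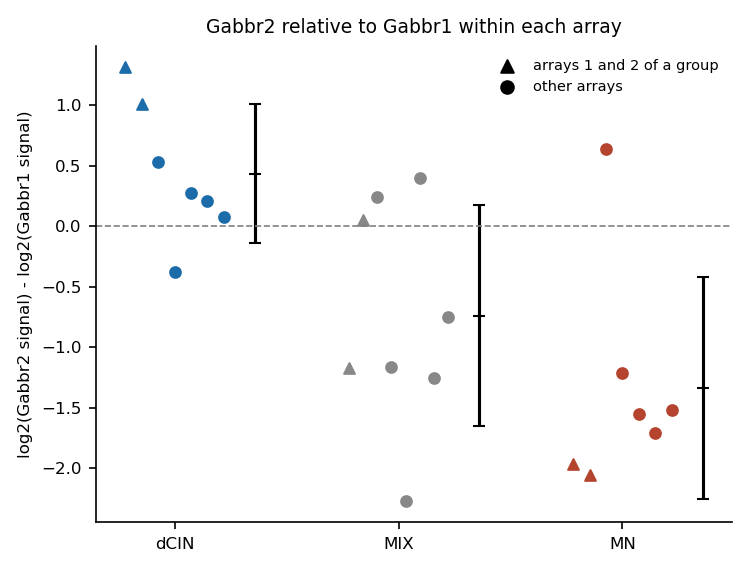
Log2 signal of Gabbr2 probe set 1 minus log2 signal of Gabbr1 probe set 1 on each array. Triangles are arrays 1 and 2 of a group, circles the other arrays, and bars the mean ± SD, which was 0.43 ± 0.58 in dCINs, -0.74 ± 0.92 in MIX and -1.34 ± 0.92 in MNs. The dashed line at 0 is a guide only.

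The remaining metabotropic glutamate receptors, all from single dim probe sets, lay level between dCINs and MNs. Grm2, like Grm4 a receptor coupled to inhibitory G proteins, was at 40.0 ± 6.20 in dCINs against 41.9 ± 4.33 in MNs (SD, n = 7 arrays each), with a log2 difference of -0.07 (SE 0.11, limma adjusted p = 0.813). Grm8, the closest relative of Grm4 measured here, was at 27.8 ± 4.18 and 29.5 ± 5.48, with a log2 difference of -0.08 (SE 0.13, limma adjusted p = 0.841). Grm5, the receptor that acts through phospholipase C, was at 35.1 ± 3.42 and 34.4 ± 1.15, with a log2 difference of 0.02 (SE 0.08, limma adjusted p = 0.931). These 3 probe sets and the dimmer ones of Gabbr1 and Gabbr2 make up 7 probe sets with signals from 20.9 to 94.1. The 95% intervals of their 7 dCIN to MN differences lay within 0.737 and 1.19 fold. Such intervals describe the signal on the array, and close to background a signal can understate a difference in transcript.

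MIX, the random sample of ventral horn cells, took a place between the labelled groups for both called receptors. Comparisons with MIX were fitted over all 22 arrays, share the dCIN and MN arrays with the comparison above, and are not independent of it. For Gabbr2 probe set 1 the MIX arrays ran from 109 to 419 with a median of 199 and a mean of 227 ± 101 (SD, n = 8 arrays). They covered most of the range of both other groups, with 2 arrays above the highest MN array and 6 below the lowest dCIN array. MIX was above MNs by 0.66 on the log2 scale (SE 0.28, unadjusted p = 0.0285, limma adjusted p = 0.412) and differed from dCINs by -0.78 (SE 0.28, unadjusted p = 0.0119, limma adjusted p = 0.414). The MIX to MN difference was 1.83 within arrays 1 and 2 and 0.21 in the arrays numbered 3 and up, where the limma adjusted p was 0.861.

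For Grm4 the MIX arrays ran from 208 to 607 with a median of 372 and a mean of 383 ± 112 (SD, n = 8 arrays). Here 7 MIX arrays lay above the highest MN array, and only 1, MIX array 7, lay below the lowest dCIN array. MIX was above MNs by 0.69 on the log2 scale (SE 0.22, unadjusted p = 0.00556, limma adjusted p = 0.238). Against dCINs the difference was -0.47 (SE 0.22, unadjusted p = 0.0488, limma adjusted p = 0.679). Neither comparison with MIX passed the threshold for either gene, which does not show equal levels: the 95% intervals for MIX over MNs were 1.05 to 2.38 fold for Gabbr2 and 1.17 to 2.23 fold for Grm4. In MIX against MNs 10 (0.952%) of all probe sets were called, 3 (0.286%) higher and 7 (0.667%) lower in MIX, and in MIX against dCINs 5 (0.476%).

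The other receptors in MIX stayed near the labelled groups. Gabbr1 probe set 1 was at 361 ± 94.6 (SD, n = 8 arrays), with log2 differences of 0.06 from MNs (SE 0.24, limma adjusted p = 0.914) and 0.40 from dCINs (SE 0.24, limma adjusted p = 0.841). Grm5 was at 38.0 ± 4.20, with 6 of 8 MIX arrays above the highest MN array, yet the log2 difference was 0.14 (SE 0.08, limma adjusted p = 0.437). The 7 dim probe sets differed from MNs by -0.09 to 0.14 and from dCINs by -0.11 to 0.20. The within-array ratio of Gabbr2 to Gabbr1 in MIX was -0.74 ± 0.92 (SD, n = 8 arrays). It was lower than in dCINs by a log2 difference of -1.17 (exact permutation p = 0.0117, adjusted p = 0.0175), which became -0.94 (exact permutation p = 0.0693, adjusted p = 0.104) with only arrays numbered 3 and up. From MNs it differed by 0.60 (exact permutation p = 0.225), and without MN array 3 by 0.93 (adjusted p = 0.0366).

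The order of the groups for both called receptors was dCINs, MIX and MNs. On a scale of mean log2 signals with MNs at 0 and dCINs at 1, MIX stood at 0.461 for Gabbr2 probe set 1 and at 0.596 for Grm4. With only arrays numbered 3 and up these positions were 0.197 and 0.561. In that order only the ends, dCINs and MNs, differed beyond the adjusted threshold, and MIX did not differ from either neighbour by it.

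The partners of these receptors were then looked at in 5 lists of genes, counting a gene as measured where a probe set carries its symbol. Over all probe sets 114 (10.9%) had an unadjusted p under 0.05 between dCINs and MNs. For the G protein subunits, through which the receptors signal, 3 of 26 genes were measured with 8 probe sets and none was called between dCINs and MNs in limma, with 2 at an unadjusted p under 0.05. The smallest p belonged to a probe set of Gnb1, a beta subunit, with a log2 difference of 0.33 (SE 0.14, limma adjusted p = 0.415). The other one at an unadjusted p under 0.05 was Gnb2, lower in dCINs by a log2 difference of -0.54 (SE 0.24, limma adjusted p = 0.439), and the other Gnb1 probe sets ranged from -0.54 to 0.28. For the regulators of receptors and G proteins, 5 of 29 genes were measured with 10 probe sets, with none called and none at an unadjusted p under 0.05. A probe set of Arrb2, an arrestin that takes receptors out of signalling, came first at 0.48 (SE 0.29, limma adjusted p = 0.628). The other Arrb2 probe sets ranged from -0.14 to 0.02.

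Among second messenger enzymes and their targets, 6 of 31 genes were measured with 13 probe sets, and 1 probe set was called. This was Prkcb, the beta form of protein kinase C, which stood at 953 ± 179 in dCINs against 396 ± 178 in MNs (SD, n = 7 arrays each), a log2 difference of 1.38 (SE 0.26, limma adjusted p = 0.00509). The other Prkcb probe sets, both dimmer, had differences of 0.31 (limma adjusted p = 0.669) and -0.08 (limma adjusted p = 0.885). Of the channels gated or inhibited through G proteins, 6 of 11 genes were measured with 13 probe sets, and none was called or had an unadjusted p under 0.05 in limma. The smallest p was that of a probe set of Cacna1d, a calcium channel subunit, at 0.18 (SE 0.13, limma adjusted p = 0.715). The other Cacna1d probe sets ranged from 0.01 to 0.11.

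Among the genes that supply and clear glutamate and GABA, the ligands of these receptors, 9 of 17 were measured with 15 probe sets. Here 2 probe sets were called, both higher in dCINs. The neuronal glutamate transporter Slc1a6 was at 250 ± 80.1 in dCINs against 86.4 ± 18.3 in MNs (SD, n = 7 arrays each), a log2 difference of 1.48 (SE 0.21, limma adjusted p = 0.000775). Slc32a1, which loads GABA and glycine into vesicles, was at 514 ± 131 and 125 ± 113, a log2 difference of 2.40 (SE 0.40, limma adjusted p = 0.00266). Each of these genes had a second, dimmer probe set without a call, with a difference of 0.04 for Slc1a6 (limma adjusted p = 0.903) and 0.09 for Slc32a1 (limma adjusted p = 0.760). In MIX against MNs 2 probe sets of this list were called higher in MIX, and no other list had a call in either comparison with MIX. The list medians of the dCIN to MN difference were 0.06, -0.01, -0.03, 0.01 and 0.04 in the order given, beside -0.03 over all probe sets.

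**Figure D4:**
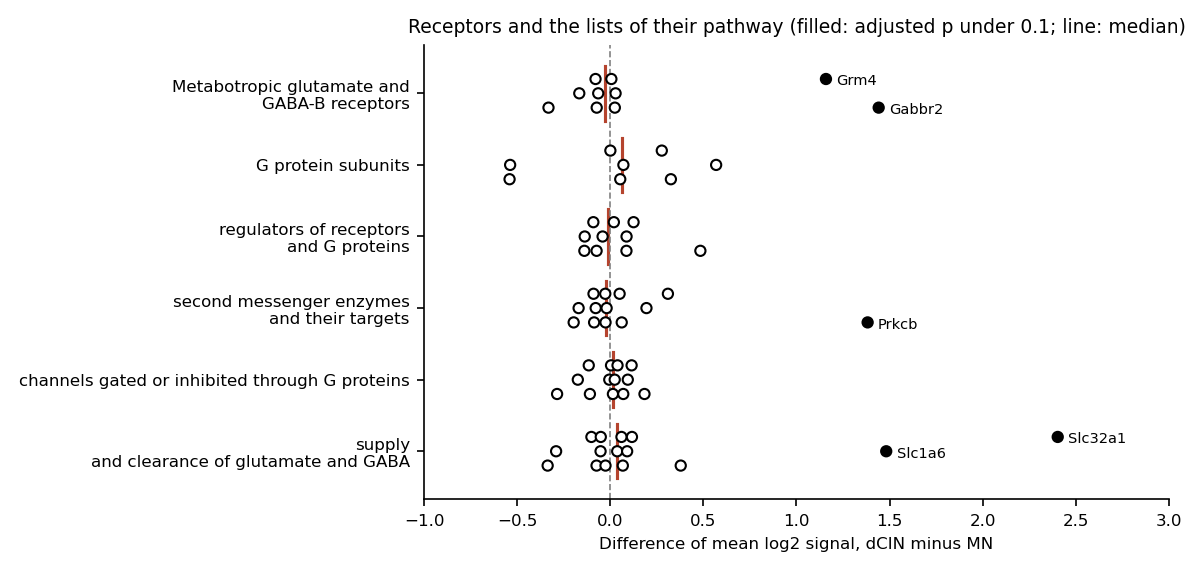
Differences of mean log2 signal, dCINs minus MNs, for the receptor probe sets and for the probe sets of 5 lists of their pathway. Each circle is 1 probe set, filled where the limma adjusted p is under 0.1, and the red line is the median of the list. The called probe sets were Grm4, Gabbr2, Prkcb, Slc1a6 and Slc32a1, all higher in dCINs, while the medians lay between -0.03 and 0.06.

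The genes whose signal followed that of Gabbr2 probe set 1 most closely over the 22 arrays were the orexin receptor Hcrtr2 (Spearman's rho 0.918), the kainate receptor subunit Grik1 (0.878) and the pentraxin Nptx2 (0.843). For Grm4 they were the enkephalin precursor Penk (0.885), Slc32a1 (0.840) and the thyroid hormone receptor Thra (0.827). These values describe the arrays, which share group means, and carry no test. With the group means taken away, the closest to Gabbr2 were Rab28 (0.767), the sodium leak channel Nalcn (0.753) and Hcrtr2 (0.728), and the closest to Grm4 were Penk (0.700), the adhesion molecule L1cam (0.689) and the ATP receptor P2rx2 (0.659). Hcrtr2 for Gabbr2 and Penk for Grm4 were thus on both lists. Gabbr2 probe set 1 and Grm4 had a rho of 0.706 with each other on levels and 0.309 without group means. Gabbr2 probe set 1 and Gabbr1 probe set 1 had -0.321 and -0.0864.

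Markers of other cells were measured on the same arrays. Of 8 astrocyte genes 4 had their symbol on a probe set, 7 probe sets in all. Their summed signal was 1148 to 2053 in dCINs, 844 to 1474 in MNs and 936 to 2003 in MIX. Most of this sum came from S100b alone, with means of 1103 in dCINs, 771 in MNs and 1198 in MIX. None of the 7 was called between dCINs and MNs in limma. Only S100b had an unadjusted p under 0.05, at a log2 difference of 0.53 (limma adjusted p = 0.170). Gfap, a defining astrocyte marker, has no symbol in the annotation used here, but the study's text names 2 of the unnamed probe sets as Gfap. Their signals were 24.4 to 37.2 and 33.9 to 64.8 in dCINs, and 25.2 to 35.9 and 40.2 to 65.0 in MNs, with log2 differences of -0.05 (SE 0.11, limma adjusted p = 0.895) and -0.18 (SE 0.16, limma adjusted p = 0.721). Of 8 oligodendrocyte genes 4 were measured with 7 probe sets, summing to 491 to 700 in dCINs, 500 to 772 in MNs and 372 to 787 in MIX, with none called and 2 at an unadjusted p under 0.05. These were a probe set of Mag at -0.31 (limma adjusted p = 0.160) and one of Mog at -0.28 (limma adjusted p = 0.365), both lower in dCINs. The single microglia gene with a named probe set lay between 14.1 and 27.5 on all arrays. Their part, and that of Slc32a1-expressing cells, in the signals of Gabbr2 and Grm4 was not tested.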

How the data were processed

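The authors labelled the cells, cut them from sections of 10 µm, amplified their RNA in 2 rounds and hybridized 5 µg per array to Affymetrix RN_U34. The deposited intensity values are linear. The authors obtained them from perfect match probes by background subtraction, normalization over all 22 arrays and Li-Wong summaries, less a universal minimum. Normalization had 2 steps, a linear rescaling of each array and then quantile normalization. By the authors' account, subtracting that minimum makes ratios between samples larger. With an offset of 32 added, the log2 differences of dCINs minus MNs were 1.23 for Gabbr2 probe set 1 and 1.05 for Grm4. They kept 1050 probe sets. Of these, 961 carry 1 symbol in the platform annotation, 7 several and 82 none, and some genes are not reported here. Joint normalization can spread a deviation of one array into others, and no detection calls accompany the values. The number of arrays limits the precision.

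Values were log2-transformed without a filter and compared with limma 3.58.1 (R 4.3.3, lmFit and eBayes), over 14 arrays for dCINs against MNs and over 22 arrays with 3 group means for MIX. Calls used a Benjamini-Hochberg adjusted p under 0.1 over 1050 probe sets. Ratios within arrays were tested with two-sided exact permutation tests (Python 3.11.15, pandas 2.3.3, scipy 1.17.1). Figures used matplotlib 3.10.9. Each array is another animal. The code was tested on simulated data.

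The members, the 5 pathway lists, the 6 marker lists (vessel markers had no probe set) and the tests were chosen with earlier results of these data known. The text names all members, from each pathway list the called probe sets or else the one with the smallest p, and for each called member the 3 probe sets with the highest Spearman correlation. Alternatives were other normalizations, an offset of 32, a mean log2 of at least 6, a trended robust prior, weights per array, a replicate block, a covariate for cell number, arrays 1 and 2 as a covariate or left out, an adjusted p under 0.05, other arrays in the fit, and each array left out.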

Additional observations from a re-analysis of the deposited data

Results flagged for a closer look

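In 33 groups of values (10 probe sets and the ratio of Gabbr2 to Gabbr1, in 3 groups of arrays), 5 held an array at one end of the group that lay far from the others by Dixon's test at the 95% level, which chance gives in about 1 of 20 groups. Grm4 in dCIN array 1 was at log2 8.18 (signal 290), where the other dCIN arrays were at 487 to 654. Grm4 in MN array 7 was at log2 6.70 (signal 104), where the other MN arrays were at 202 to 331. Without dCIN array 1 or MN array 7, as without any other single array, Grm4 kept its call between dCINs and MNs, with log2 differences of 0.97 to 1.29. The log2 ratio of Gabbr2 to Gabbr1 in MN array 3 was 0.64, a linear ratio of 1.55, where the other MN arrays had linear ratios of 0.241 to 0.431. Gabbr2 probe set 3 in MIX array 5 was at log2 6.56 (signal 94.1), where the other MIX arrays were at 21.7 to 33.4, while the brighter Gabbr2 probe set 1 had its lowest MIX value, 109, on that same array. Grm2 in MN array 5 was at log2 5.05 (signal 33.2), where the other MN arrays were at 40.6 to 46.8.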

How the results depend on the processing

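Gabbr2 probe set 1 and Grm4 kept their calls between dCINs and MNs in all 27 alternatives, with log2 differences of 1.02 to 1.64 and 0.97 to 1.41. The count over all probe sets, 40, became 76 with array weights and 83 with arrays 1 and 2 as a covariate, and 31 to 55 with each array left out. For MIX against MNs the count of 10 became 3 with quantile normalization, 33 with array weights, 2 at an adjusted p under 0.05, and 2 to 14 with each array left out. No member was called there except with array weights, which called 2 (Gabbr2 probe set 1 at 0.66, adjusted p = 0.0982, and Grm4 at 0.84, adjusted p = 0.0249), and without MIX array 7, which called Grm4 (0.81, adjusted p = 0.0944), a range of 0 to 1 with each array left out. For MIX against dCINs the count of 5 became 2 with quantile normalization, 2 with a trended robust prior, 68 with a covariate for cell number, 1 at an adjusted p under 0.05, and 1 to 8 with each array left out.

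The ratio of Gabbr2 to Gabbr1 depended on the Gabbr2 probe set. With Gabbr2 probe set 1 over Gabbr1 probe sets 2 and 3 it was 1.41 and 1.61 for dCINs minus MNs (adjusted p = 0.00524 for both), and -0.85 for MIX minus dCINs over Gabbr1 probe set 3 (adjusted p = 0.011). For dCINs minus MNs (1.77) it was 0.34, -0.023 and 0.17 with Gabbr2 probe set 2 over Gabbr1 probe sets 1, 2 and 3, and 0.27, -0.093 and 0.10 with Gabbr2 probe set 3. For MIX minus dCINs (-1.17) these were -0.45, 0.051 and -0.13, and -0.19, 0.31 and 0.13, and with Gabbr2 probe set 1 over Gabbr1 probe set 2 it was -0.67. With only arrays numbered 3 and up the ratios were 1.21 and -0.94, neither past the threshold. With each array left out they ran from 1.63 to 2.10 (the latter without MN array 3), from -1.34 to -0.96 and, for MIX minus MNs (0.60), from 0.44 to 0.93, the last without MN array 3 (adjusted p = 0.0366). The cause was not tested.

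Samples that share a replicate number did not deviate together throughout (correlations of -0.19 to 0.53 between dCINs and MNs, and not every sample correlated best with its own number), so the numbers were not taken as pairs. With the replicate number as a block, 55 probe sets were called between dCINs and MNs, both member calls were kept (Gabbr2 probe set 1 adjusted p = 0.0102, Grm4 adjusted p = 0.0118), and the ratio of 1.77 had an exact sign-flip p adjusted to 0.0469. The block gave 9 calls for MIX against MNs and 7 for MIX against dCINs, none of them members, with MIX array 8 dropped for want of a partner. Limma fits on arrays numbered 3 and up were added after the data were seen. The filter on a mean log2 of 6 left out the 7 dim receptor probe sets, so it gave no value for them.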
